A study of Mus musculus with 10 samples.

Results

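The genes of the proteasome and of its activators, assembly chaperones and inhibitor were examined in cultured mouse lung fibroblasts. Members were all genes whose symbol starts with Psma, Psmb, Psmc, Psmd, Psme, Psmf or Psmg followed by a number, and an immune-induced subset was named within them: Psmb8, Psmb9, Psmb10, Psme1 and Psme2. Of the 18193 genes measured, 49 matched. Of these, 47 encode parts of the proteasome, its activators, its assembly chaperones or its inhibitor, and the other two, Psmc3ip and Psme3ip1, encode proteins named for binding such a part. The array reads Psme2 and Psme2b with a shared probe set, so neither was given a value and the immune-induced subset was read through 4 of its 5 genes.

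There were 2 groups of 5 arrays each: normal fibroblasts from mouse lung, and carcinoma-associated fibroblasts (CAF), the fibroblasts that surround tumour cells. Both came from mouse lungs, were grown on in culture with 10% serum over 10 to 14 days, and stood overnight after replating before RNA was taken. The labels call the arrays biological replicates but name no strain, age, genotype or tumour model, and do not say whether animals were pooled; the p-values below measure the spread between these arrays. A code in the descriptions starts with vs on normal replicates 1 to 3 and with ls on normal replicates 4 and 5 and on all 5 CAF arrays, and its meaning is not stated.

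The proteasome is the barrel-shaped protease that degrades proteins tagged with ubiquitin. Its core particle stacks outer rings of alpha subunits (Psma genes) on inner rings of beta subunits (Psmb genes), of which 3 cut peptide bonds: Psmb5, Psmb6 and Psmb7. A regulatory particle caps the core, with ATPases (Psmc genes) that unfold the substrate and non-ATPase subunits (Psmd genes) that bind and remove ubiquitin. In cells exposed to interferon gamma, Psmb8, Psmb9 and Psmb10 take the places of Psmb5, Psmb6 and Psmb7 and form the immunoproteasome, while Psme1 and Psme2 form an alternative cap; both shape the peptides shown on MHC class I molecules. Transcription of the constitutive subunits is raised together by Nfe2l1, which binds antioxidant response elements, and that of the immune-induced subunits by Irf1.

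Promoters of 2 of the 3 catalytic pairs are printed (Psmb5 with Psmb8, and Psmb6 with Psmb9) because a constitutive subunit and its immune-induced replacement are built into the same position of the ring under different transcriptional control. The sequences are the bases just before the annotated start, 5′ to 3′ on the gene's strand, from RefSeq on mouse build GRCm38.p6. They cover chr14:54617996-54618245 on the minus strand (Psmb5), chr17:34197945-34198194 on the plus strand (Psmb8), chr11:70525107-70525356 on the plus strand (Psmb6) and chr17:34187331-34187555 on the minus strand (Psmb9, 225 bases, ended at the annotated start of its divergent neighbour Tap1). Capitals mark every match to the motifs searched.
Psmb5: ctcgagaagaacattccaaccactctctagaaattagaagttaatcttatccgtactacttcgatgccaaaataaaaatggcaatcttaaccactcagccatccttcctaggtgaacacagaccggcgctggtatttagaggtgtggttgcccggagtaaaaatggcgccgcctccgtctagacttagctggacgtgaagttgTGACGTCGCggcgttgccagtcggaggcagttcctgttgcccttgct
Psmb8: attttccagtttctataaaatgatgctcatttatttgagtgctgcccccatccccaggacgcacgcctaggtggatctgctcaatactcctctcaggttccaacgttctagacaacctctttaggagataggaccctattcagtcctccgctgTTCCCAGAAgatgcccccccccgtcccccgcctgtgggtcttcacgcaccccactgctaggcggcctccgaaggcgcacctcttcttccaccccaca
Psmb6: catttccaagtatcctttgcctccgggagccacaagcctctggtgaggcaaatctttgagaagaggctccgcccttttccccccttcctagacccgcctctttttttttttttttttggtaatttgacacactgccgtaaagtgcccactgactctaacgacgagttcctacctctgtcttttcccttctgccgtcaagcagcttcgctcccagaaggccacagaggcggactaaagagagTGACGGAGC
Psmb9: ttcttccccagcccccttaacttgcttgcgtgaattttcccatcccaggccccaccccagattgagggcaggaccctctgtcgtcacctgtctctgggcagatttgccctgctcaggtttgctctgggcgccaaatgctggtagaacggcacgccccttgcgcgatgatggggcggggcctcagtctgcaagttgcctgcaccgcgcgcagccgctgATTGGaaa

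In Psmb5 the capitals are an antioxidant response element core from base -47 to -39 before the start, and in Psmb6 another from -9 to -1. In Psmb8 they are a gamma-activated site from -97 to -89, and in Psmb9 a CCAAT box read on the reverse strand from -8 to -4. The 4 motifs were searched on both strands in the 250 bases before the start, in 41 of the 49 members that had a sequence and in 27025 genes in all: the antioxidant response element core TGACNNNGC, the interferon regulatory factor element GAAANNGAAA, the gamma-activated site TTCNNNGAA, which reads the same on both strands, and CCAAT. The antioxidant response element core was in 5 of 41 members (12.2%) against 11.5% of all genes, the interferon regulatory factor element in 3 of 41 (7.32%) against 3.46%, the gamma-activated site in 2 of 41 (4.88%) against 8.13%, and CCAAT in 16 of 41 (39.0%) against 37.5%. None of the 4 immune-induced genes held the interferon regulatory factor element in this window. These matches are descriptions of letters, and no member without a sequence (Psma8, Psmb1, Psmb2, Psmb7, Psmc3, Psmd3, Psmd7 and Psmg2) entered the shares.

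The labelled cell type was checked against markers. Fibroblast markers averaged 12.71 to 14.53 (log2) on the normal arrays and 12.67 to 14.05 on the CAF arrays, with Col1a2, Vim and Fn1 the brightest. Lum varied most among them, from 8.18 to 14.49 on the normal arrays and from 7.06 to 14.12 on the CAF arrays. Macrophage markers were also bright and uneven: the mean of the 15 listed genes was 13.26, 9.78, 12.22, 11.14 and 10.30 on normal replicates 1 to 5 and 13.20, 11.16, 10.71, 11.64 and 12.52 on CAF replicates 1 to 5, with Lyz2, Tyrobp and C1qb the brightest. Lymphocyte, endothelial and epithelial markers averaged between 5.98 and 7.75 on every array, and mesothelial markers 5.67 to 11.07 on normal arrays and 6.71 to 9.38 on CAF arrays. The brightest, in the same order of lists, were Cd4, Cd3e and Cd8a, Kdr, Cldn5 and Tie1, Krt18, Krt8 and Epcam, and Upk3b, Wt1 and Lrrn4. These averages hide uneven genes. The epithelial marker Krt18 read 5.67 to 11.35 on normal arrays and 6.69 to 10.93 on CAF arrays. The mesothelial marker Upk3b read 5.35 to 14.03 on normal arrays and 7.09 to 10.99 on CAF arrays. Over all genes, 102 were called higher in CAF and 35 lower (limma, Benjamini-Hochberg adjusted p under 0.05), together 137 of 18193 or 0.753%.

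No proteasome gene passed the test in either direction: 0 of 49 were called, against the background of 0.561% called higher and 0.192% called lower. With shares this low, a count of 0 here, or in any class or list below, does not set its genes apart. At an unadjusted p under 0.05 there was 1 of 49 (2.04%), Psme4, against 22.3% of all genes. An exact 2-sided permutation test per gene gave 1 of 49 at an unadjusted p under 0.05, against 4070 of all 18193 genes; it called 0 genes over the whole array, so its count of calls says nothing about the members. Adjusted p-values ran from 0.147 to 0.997 by limma. No member had groups that did not overlap, against 7.16% of all genes (2.97% with CAF higher and 4.19% with CAF lower). The CAF minus normal difference was positive for 19 members (38.8%; all genes 42.7%) and negative for 30. The median was -0.04 on the log2 scale, the same as the median of -0.04 over all genes. The 95% interval of the difference lay within a 2-fold change in both directions for 43 of 49 members (87.8%; all genes 84.9%); the exceptions were Psmb8, Psmb9, Psmg1, Psmg3, Psmg4 and Psmc3ip.

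**Figure D1:**
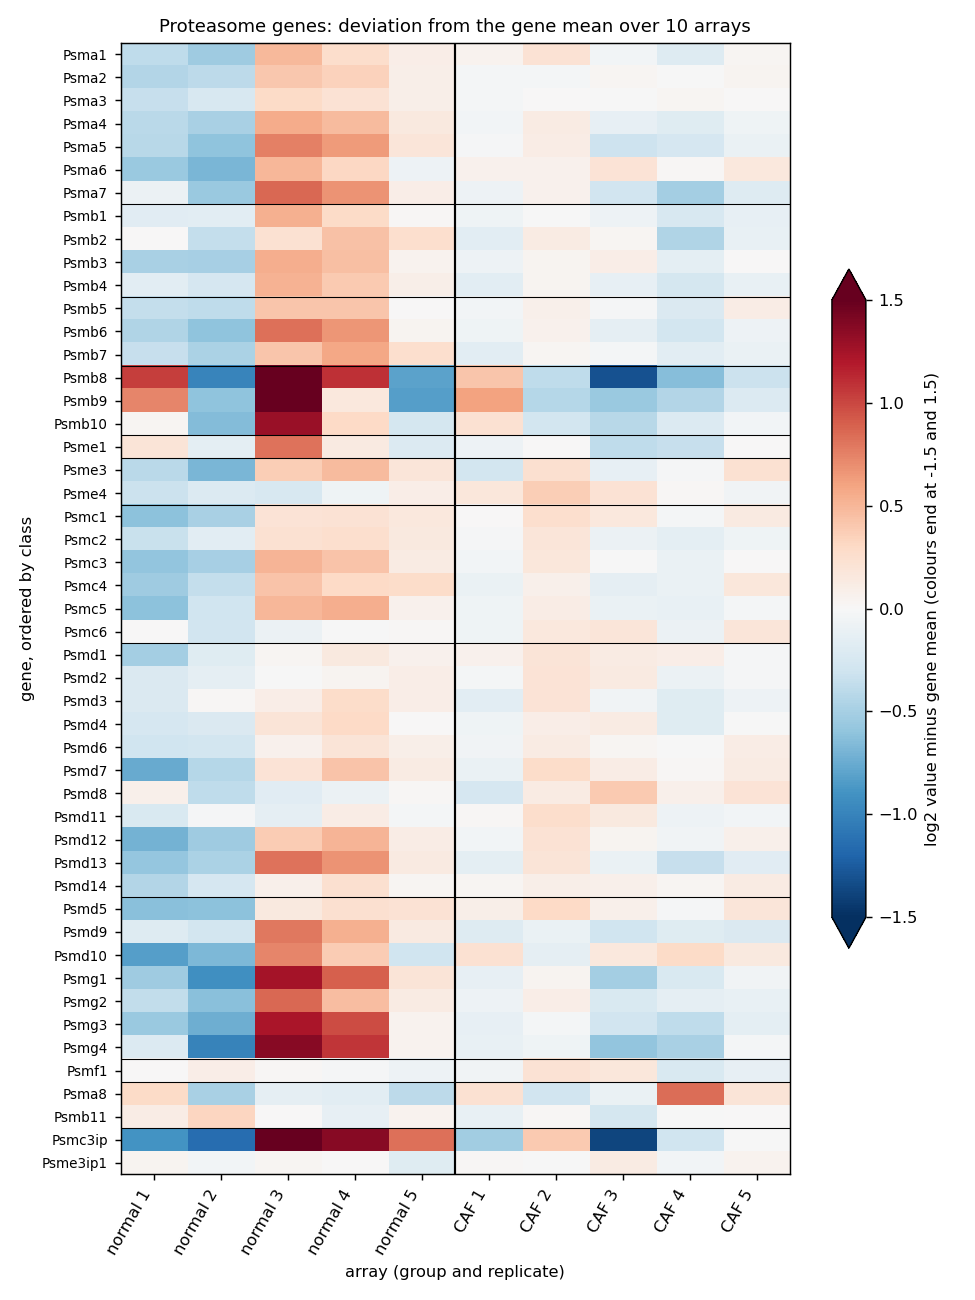
Level of each proteasome gene on each of the 10 arrays, as the log2 value minus that gene's mean over the arrays, with genes in rows grouped by role, arrays in columns (5 normal, 5 CAF) and colours that end at 1.5 in both directions. Normal replicates 1 and 2 are low and normal replicates 3 and 4 high for most core, regulatory and chaperone genes. The CAF values of most of these genes stay nearer 0, while the immune-induced genes vary on the CAF arrays as well.

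The alpha ring, which gates entry to the core, had 7 genes measured, of which 2 were positive and 5 negative, with a median difference of -0.0035. Psma6, an alpha ring subunit, read 12.59, 12.46, 13.65, 13.46 and 13.08 on normal replicates 1 to 5 and 13.21, 13.21, 13.36, 13.17 and 13.31 on CAF replicates 1 to 5. Normal replicates 1 and 2 were lowest and replicates 3 and 4 highest, and every CAF value lay between them. The difference was 0.20 ± 0.22 (adjusted p = 0.608). Psma7, the member of this ring with the largest negative difference, read 12.90, 12.43, 13.84, 13.66 and 13.08 on the normal arrays and 12.91, 13.05, 12.69, 12.48 and 12.79 on the CAF arrays. Again the groups overlapped, and the difference of -0.40 ± 0.25 (adjusted p = 0.37) did not pass the test.

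All 3 catalytic beta subunits had negative differences that were small beside their spread. Psmb5, which cuts after hydrophobic residues, read 12.95, 12.92, 13.72, 13.73 and 13.31 on the normal arrays and 13.26, 13.38, 13.28, 13.09 and 13.41 on the CAF arrays. Its difference was -0.041 ± 0.17 (adjusted p = 0.908), with a 95% interval of -0.43 to 0.34, and it turned positive with the arrays shifted to the same median and when normal replicate 3 or 4 or CAF replicate 4 was left out. For Psmb6, which cuts after acidic residues, the normal values were 12.69, 12.55, 13.98, 13.81 and 13.19 and the CAF values 13.08, 13.21, 13.02, 12.87 and 13.07. Its highest arrays were normal replicates 3 and 4 and its lowest normal replicates 1 and 2, so the normal group enclosed the CAF group, and the difference was -0.19 ± 0.27 (adjusted p = 0.697), with an interval of -0.79 to 0.41. It was -0.0092 without normal replicate 3, -0.053 without normal replicate 4 and -0.45 against the ls normal arrays alone. Psmb7, which cuts after basic residues, read 12.97, 12.84, 13.73, 13.89 and 13.56 on the normal arrays and 13.15, 13.34, 13.28, 13.16 and 13.21 on the CAF arrays. It followed the same order and differed by -0.17 ± 0.20 (adjusted p = 0.641), with an interval of -0.61 to 0.27.

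The 4 beta subunits without a catalytic site were negative in every case, with a median of -0.21. Psmb4, one of them, read 13.51, 13.42, 14.19, 14.06 and 13.76 on the normal arrays and 13.50, 13.71, 13.55, 13.40 and 13.56 on the CAF arrays. Its CAF values overlapped the lower normal values, and the difference was -0.24 ± 0.15 (adjusted p = 0.36). Over the 14 core ring genes together, 12 differences were negative and 2 positive with a median of -0.14, and 0 of 14 passed the test. Over all genes 10416 of 18193 differences were negative. With each array shifted to the same median the count of negative core differences was 8 of 14, against the vs normal arrays alone it was 6 of 14, and against the ls normal arrays alone 14 of 14. Without normal replicate 3 it was 7 of 14, with a median of 2.5e-05.

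The immune-induced subset was negative in all 4 genes read, with a median of -0.36, and none passed the test. Psmb9 turned positive, at 0.13, against the ls normal arrays alone. Psmb8, the replacement for Psmb5, read 10.31, 8.28, 11.15, 10.37 and 8.47 on normal replicates 1 to 5 and 9.68, 8.89, 7.97, 8.64 and 8.95 on CAF replicates 1 to 5. It was high on normal replicates 1, 3 and 4, low on normal replicates 2 and 5, and between 7.97 and 9.68 on the CAF arrays. Its mean was 9.72 ± 1.27 (SD, n = 5) in the normal group and 8.83 ± 0.62 (SD, n = 5) in the CAF group, a difference of -0.89 ± 0.57 with a 95% interval of -2.17 to 0.39 and an adjusted p of 0.383. A dimmer probe set of Psmb8, with a mean of only 5.35 over the 10 arrays, differed by -0.29 ± 0.15. Whether that level is above background cannot be told. Psmb9, the replacement for Psmb6, read 8.48, 7.14, 9.29, 7.90 and 6.92 on the normal arrays and 8.35, 7.31, 7.19, 7.30 and 7.53 on the CAF arrays. Normal replicate 3 was highest, and CAF replicate 1 lay above 3 of the 5 normal values. The difference was -0.41 ± 0.44 (adjusted p = 0.608), with an interval of -1.39 to 0.57.

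Psmb10, the replacement for Psmb7, read 10.33, 9.65, 11.60, 10.60 and 10.04 on the normal arrays and 10.52, 10.03, 9.88, 10.10 and 10.26 on the CAF arrays. Here too normal replicate 3 was highest, and the difference was -0.29 ± 0.32 (adjusted p = 0.619). It came to 0.0016 without normal replicate 3. Psme1, a subunit of the interferon-induced cap, read 11.88, 11.54, 12.50, 11.83 and 11.49 on the normal arrays and 11.61, 11.69, 11.30, 11.34 and 11.70 on the CAF arrays, with normal replicate 3 highest once more. It differed by -0.32 ± 0.19 (adjusted p = 0.341), and its interval of -0.73 to 0.10 lay within a 2-fold change. Normal replicate 3 was the highest array for all 4 genes, and without it the difference was -0.53 for Psmb8, -0.074 for Psmb9 and -0.15 for Psme1, with a subset median of -0.11. All 15 macrophage markers had a positive difference, with a median of 0.43 and 0 called. Their mean was 13.26 and 12.22 on normal replicates 1 and 3 and 13.20 on CAF replicate 1, where Psmb8 and Psmb9 were also high. It was 11.14 on normal replicate 4, where Psmb8 and Psmb9 read 10.37 and 7.90. On CAF replicate 5 it was 12.52, and these genes read 8.95 and 7.53. The part of the markers in the result was not tested. In RNA from whole cultures, fewer cells of a type and less RNA per cell cannot be told apart.

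**Figure D2:**
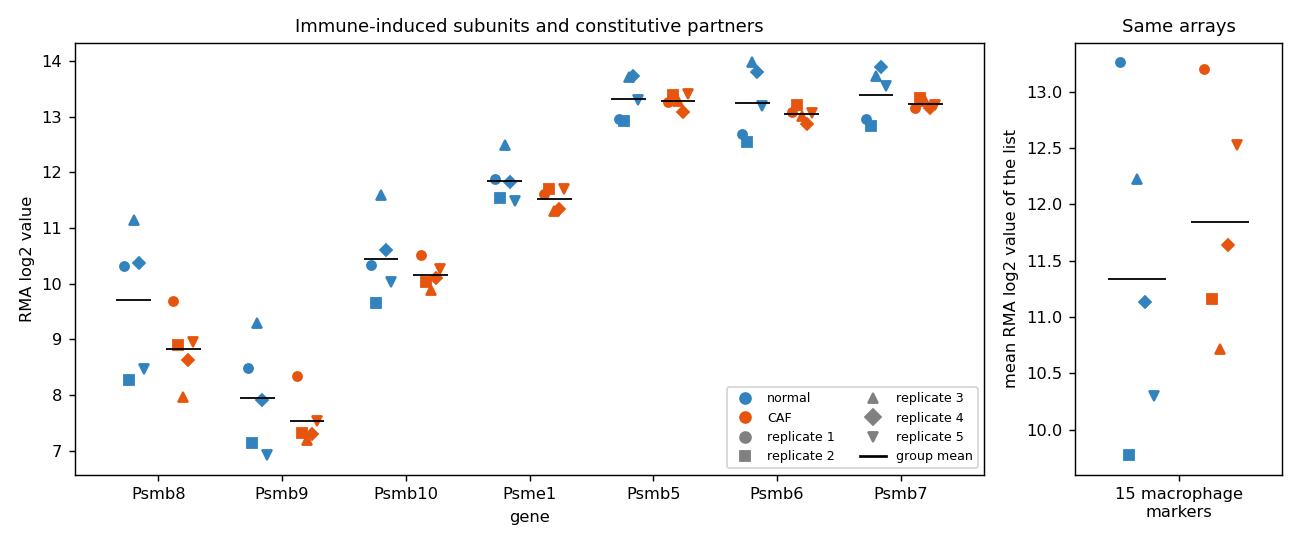
RMA log2 values of the 4 immune-induced genes and the 3 constitutive catalytic subunits (left), and the mean log2 value of 15 macrophage markers (right), with 1 point per array, colour for the group, shape for the replicate number and a line at each group mean of 5 arrays. Normal replicate 3 is the highest array for all 4 immune-induced genes, and the groups overlap for every gene.

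The step from constitutive to immune-induced subunit was also followed within each array, as the log2 value of the immune-induced gene minus that of its partner. For Psmb8 minus Psmb5 it averaged -3.61 ± 1.08 (SD, n = 5) on normal arrays and -4.46 ± 0.61 (SD, n = 5) on CAF arrays. Psmb9 minus Psmb6 gave -5.30 ± 0.85 and -5.51 ± 0.46, and Psmb10 minus Psmb7 gave -2.95 ± 0.56 and -3.07 ± 0.31, each as mean ± SD over 5 normal and 5 CAF arrays. The arrays of the groups overlapped in all 3 pairs. Each offset joins probe sets of different brightness, so only its change between arrays has meaning, and no test was run on it.

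The regulatory particle had 17 genes measured, 11 positive and 6 negative, with a median of 0.086 and 0 of 17 past the test. Among its 6 ATPases, Psmc6 read 12.85, 12.56, 12.76, 12.84 and 12.86 on the normal arrays and 12.78, 13.00, 13.03, 12.75 and 13.02 on the CAF arrays. These values spanned a narrow range with overlapping groups, and the difference was 0.14 ± 0.088 (adjusted p = 0.355). Psmc2, another ATPase, read 12.76, 12.94, 13.32, 13.35 and 13.24 on the normal arrays and 13.08, 13.27, 13.01, 12.95 and 13.03 on the CAF arrays, a difference of -0.053 ± 0.12 (adjusted p = 0.825). Among the 11 non-ATPase subunits, 8 were positive. Psmd8 read 13.59, 13.13, 13.35, 13.43 and 13.53 on the normal arrays and 13.26, 13.64, 13.91, 13.59 and 13.72 on the CAF arrays. CAF replicate 3 was its highest array and normal replicate 2 its lowest, and it differed by 0.22 ± 0.13 (adjusted p = 0.333). Psmd3, a scaffold subunit of the lid, read 11.15, 11.39, 11.48, 11.64 and 11.47 on the normal arrays and 11.21, 11.58, 11.31, 11.19 and 11.30 on the CAF arrays and differed by -0.11 ± 0.11 (adjusted p = 0.574).

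The direction over the regulatory particle depended on which normal arrays were used. Against the vs normal arrays alone 2 of its 17 differences were negative, and against the ls normal arrays alone 14 of 17 were.

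**Figure D3:**
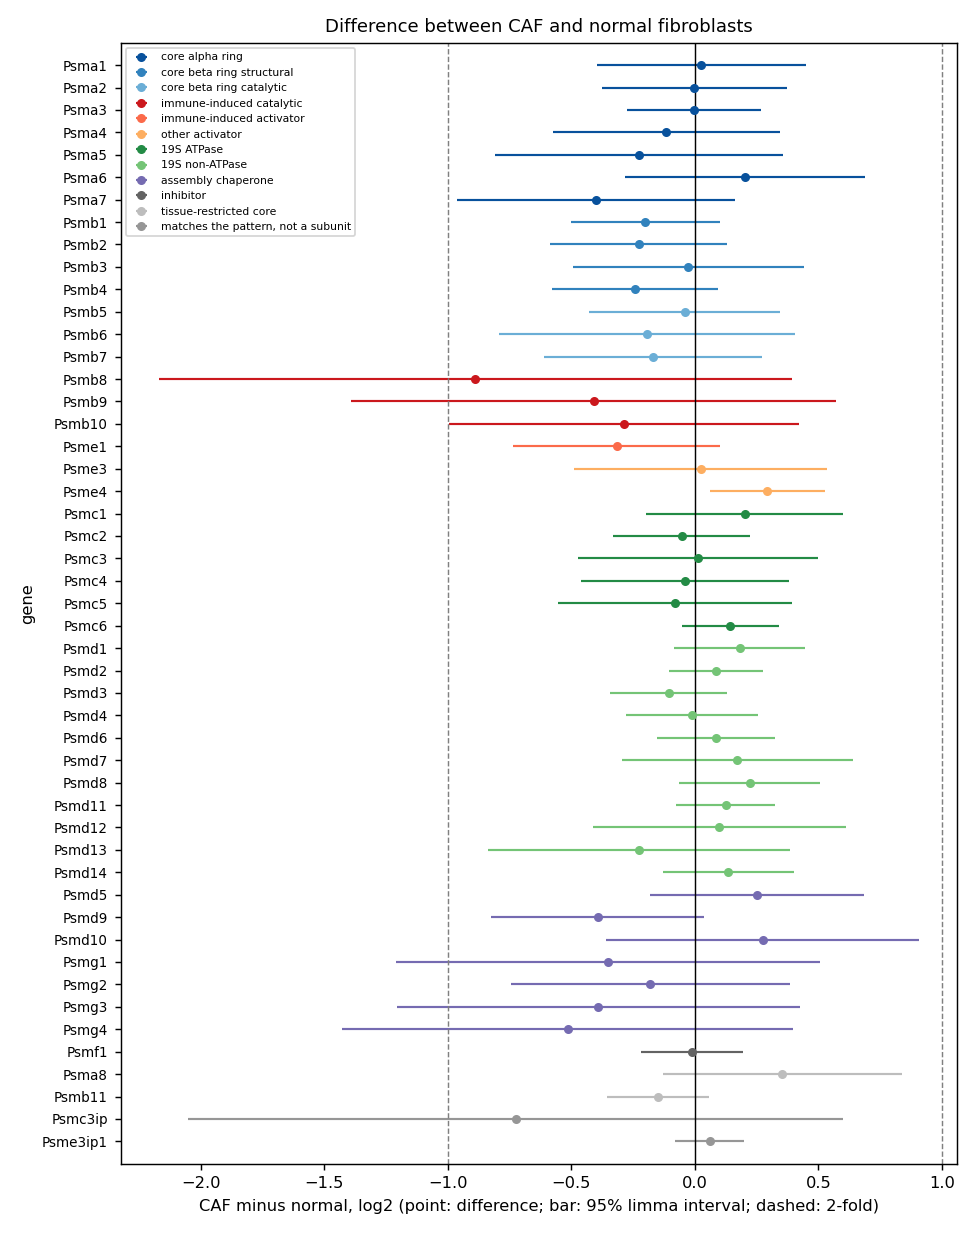
CAF minus normal difference of each of the 49 genes on the log2 scale with its 95% interval from limma, coloured by role (19S is the regulatory particle), with dashed lines at a 2-fold change. Of the 49 intervals, 43 lie within a 2-fold change in both directions, and the wide ones belong to Psmb8, Psmb9, Psmg1, Psmg3, Psmg4 and Psmc3ip.

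Assembly chaperones hold subunits together while the particle is built and then leave it. Of the 7 measured, 2 were positive and 5 negative, with a median of -0.35, and 0 passed the test. Psmd9, a chaperone of the regulatory particle base, read 9.96, 9.88, 10.94, 10.68 and 10.29 on the normal arrays and 9.96, 10.05, 9.85, 9.97 and 9.94 on the CAF arrays. Normal replicates 3, 4 and 5 lay above every CAF value, while normal replicates 1 and 2 lay among the CAF values. The difference was -0.39 ± 0.19 (adjusted p = 0.26), with an interval of -0.82 to 0.036. Psmd5, which serves the same base, read 10.53, 10.55, 11.31, 11.40 and 11.37 on the normal arrays and 11.25, 11.45, 11.24, 11.14 and 11.34 on the CAF arrays and differed by 0.25 ± 0.19 (adjusted p = 0.468). The core chaperones Psmg1, Psmg2, Psmg3 and Psmg4 differed by -0.35 ± 0.38, -0.18 ± 0.25, -0.39 ± 0.36 and -0.51 ± 0.41, and the remaining base chaperone, Psmd10, by 0.28 ± 0.28.

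The member with the smallest p was Psme4, named here after its values were seen; it encodes PA200, an activator that opens the core without ubiquitin. It read 10.80, 10.92, 10.88, 11.06 and 11.22 on the normal arrays and 11.30, 11.49, 11.34, 11.14 and 11.07 on the CAF arrays. CAF replicates 1, 2 and 3 lay above every normal value, CAF replicates 4 and 5 did not. The difference was 0.29 ± 0.10, with an interval of 0.06 to 0.53, an unadjusted p of 0.019 and an adjusted p of 0.147 by limma, so it was not called. It was 0.13 ± 0.13 against the ls normal arrays alone, 0.40 ± 0.11 against the vs normal arrays alone and 0.087 ± 0.062 for the mean of all its probe sets. Of its dimmer probe sets, the brighter ones differed by 0.19 ± 0.087 and 0.33 ± 0.11 and the 3 dimmest by -0.16, 0.029 and -0.16. Psme3, the nuclear activator, differed by 0.023 ± 0.23 (adjusted p = 0.961), and Psmf1, the inhibitor also known as PI31, by -0.012 ± 0.093 (adjusted p = 0.951). The dimmer probe sets of Psmf1 went the other way, at 0.26 ± 0.13, 0.25 ± 0.18 and 0.071 ± 0.13. The testis-specific alpha subunit Psma8 averaged 5.90 ± 0.30 (SD, n = 5) in the normal group and 6.26 ± 0.43 (SD, n = 5) in the CAF group. For the thymus-specific beta subunit Psmb11 the mean was 5.53 ± 0.16 (SD, n = 5) in the normal group and 5.38 ± 0.12 (SD, n = 5) in the CAF group. RMA gives no detection call, so whether these values are above background cannot be told. Psmc3ip and Psme3ip1, which are not subunits, differed by -0.72 ± 0.59 and 0.06 ± 0.063.

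The normal arrays differed among themselves more than the CAF arrays did for most members. The SD over the normal arrays exceeded that over the CAF arrays for 43 of 49 members (87.8%) against 71.1% of all genes, and the median SD was 0.43 on normal and 0.13 on CAF arrays, against 0.21 and 0.14 over all genes. For the core rings this held in 14 of 14 genes, whose median SD was 0.45 on normal and 0.11 on CAF arrays. All 5 CAF values lay inside the range of the normal values for 30 of 49 members (61.2%) against 29.9% of all genes. Neither trait was particular to the proteasome. The normal SD was larger for 100% of macrophage markers, 90.9% of regulators, 86.7% of cell division genes and 84.6% of interferon signalling genes. The share was 76.5% of proteasome partners and 50.0% of endothelial markers. CAF values lay inside the normal range for 73.3% of macrophage markers, 61.5% of interferon signalling genes, 26.7% of cell division genes and 12.5% of endothelial markers. These counts are descriptions: no test of the difference in spread was run, and members that share arrays are not independent.

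**Figure D4:**
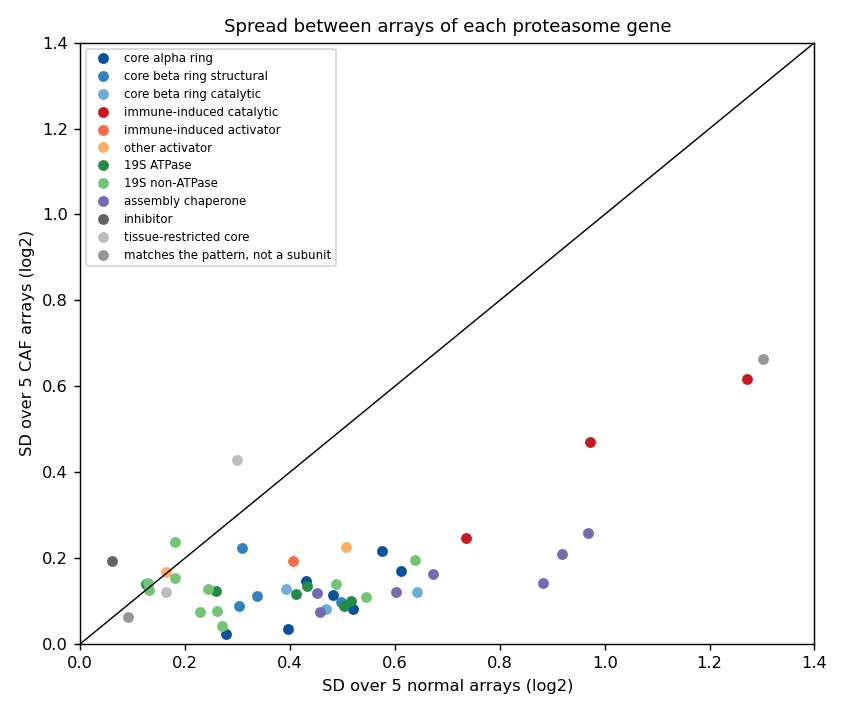
SD over the 5 normal arrays against SD over the 5 CAF arrays for each proteasome gene, in log2 units, coloured by role (19S is the regulatory particle), with the diagonal of equal spread. Of the 49 genes, 43 lie below the diagonal, with the larger SD among normal arrays, and the core ring genes all do.

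The normal arrays spread in a shared order. Normal replicate 3 was the highest array for 11 of the 14 core ring genes and normal replicate 4 for the other 3, while normal replicate 2 was lowest for 9, CAF replicate 4 for 3 and normal replicate 1 for 2. For the regulatory particle, normal replicate 1 was lowest for 15 of 17 genes and normal replicate 4 highest for 8. The median deviation of the core genes from their own means was -0.37, -0.48, 0.51, 0.43 and 0.09 on normal replicates 1 to 5, and between -0.20 and 0.06 on the CAF arrays. Of the vs normal arrays, replicates 1 and 2 were low and replicate 3 high, and both ls normal arrays, replicates 4 and 5, had a median core deviation above 0. The median core difference was 0.050 against the vs normal arrays and -0.31 against the ls normal arrays; the part of the prefix in the spread was not tested.

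**Figure D5:**
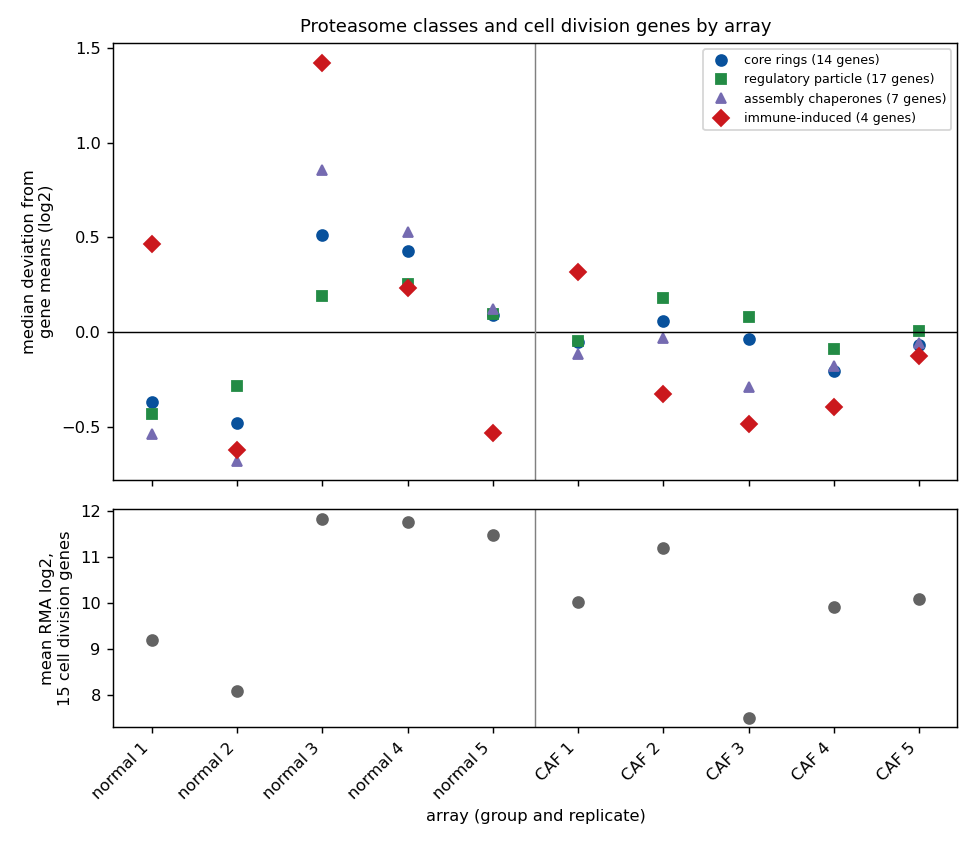
Median deviation from the gene's mean, in log2 units, on each array for the core rings, regulatory particle, chaperones and immune-induced genes, with the mean RMA log2 value of 15 cell division genes in the lower panel. The core, regulatory and chaperone points are low on normal replicates 1 and 2 and high on 3 and 4, and the immune-induced points are highest on normal replicate 3.

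Because the prefix splits the normal group, the comparison was also made within each part. Against the ls normal arrays the median difference of the 43 genes outside the immune-induced subset was -0.23 and that of the 4 immune-induced genes -0.14, and 19 of 49 members (38.8%; all genes 26.6%) had an unadjusted p under 0.05, with 0 called against 1 of all genes. Against the vs normal arrays the same medians were 0.10 and -0.60, and 4 of 49 (8.16%; all genes 18.1%) had an unadjusted p under 0.05, with 0 called against 95 of all genes.

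Cell division genes, a list of 15 measured genes chosen after values were seen, also varied over the arrays. Their mean was 9.19, 8.09, 11.84, 11.77 and 11.49 on normal replicates 1 to 5 and 10.02, 11.19, 7.51, 9.92 and 10.09 on CAF replicates 1 to 5. Normal replicates 1 and 2 were low and 3 and 4 high in this list as in the core genes, but CAF replicate 3, the lowest array of the list, had a median core deviation of -0.04. The part of these genes in the result was not tested.

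The proteins that work with the proteasome were read from lists of the same pathway. Of 17 partners measured out of 20 listed, 14 were positive and 3 negative with a median of 0.16, against -0.04 over all genes, and 0 passed the test. Ecpas, which tethers proteasomes, differed by 0.30 ± 0.062 (adjusted p = 0.0577) and its groups did not overlap. That held for 1 of 17 partners (5.88%), against 7.16% of all genes. Zfand5 and Ubqln1, a proteasome-binding protein and a ubiquitin shuttle, differed by 0.20 ± 0.076 (adjusted p = 0.173) and 0.24 ± 0.10 (adjusted p = 0.188). Of the negative genes the smallest p was that of Akirin2, a factor for nuclear import of proteasomes, at -0.12 ± 0.092 (adjusted p = 0.456). Pomp, the maturation factor of the core, read 12.65, 12.84, 13.47, 13.32 and 13.18 on the normal arrays and 13.18, 13.11, 13.20, 13.15 and 13.11 on the CAF arrays; like the core subunits it was low on normal replicates 1 and 2 and high on 3 and 4, and it is given after its values were seen.

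Of 11 regulators measured out of 12 listed, 8 were positive and 3 negative with a median of 0.23, and 0 passed the test. The small Maf proteins, dimer partners at antioxidant response elements, had the smallest p-values: Maff differed by 1.02 ± 0.33 (adjusted p = 0.124), Mafk by 0.52 ± 0.21 (adjusted p = 0.193) and Mafg by 0.29 ± 0.13 (adjusted p = 0.214). Nfyc, a CCAAT-binding subunit, differed by -0.21 ± 0.16 (adjusted p = 0.478). Nfe2l1, the activator of the constitutive subunits, is given after its values were seen. It read 11.99, 12.02, 10.15, 10.66 and 10.84 on the normal arrays and 11.69, 11.20, 12.02, 11.65 and 11.55 on the CAF arrays, lowest on normal replicates 3, 4 and 5 where the core genes were not low, and the difference was 0.49 ± 0.36 (adjusted p = 0.449).

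Interferon signalling bears on the immune-induced subset. Of 13 such genes measured out of 14 listed, 9 were positive and 4 negative with a median of 0.15, and 0 passed the test. Irf1, the transcription factor that acts on the immunoproteasome genes, read 10.43, 10.16, 10.39, 10.13 and 10.00 on the normal arrays and 9.84, 9.91, 9.56, 9.85 and 9.69 on the CAF arrays. Every CAF value lay below every normal value, and the difference of -0.45 ± 0.10 (adjusted p = 0.0676) missed the threshold. Groups did not overlap for 1 of the 13 genes (7.69%), against 7.16% of all genes. Ifngr2, a chain of the interferon gamma receptor, differed by 0.47 ± 0.11 (adjusted p = 0.0684), and Ifnar1, a chain of the type I receptor, by 0.32 ± 0.13 (adjusted p = 0.202). The antigen presentation list had 11 of 11 genes measured, 8 positive and 3 negative with a median of 0.11, and 0 passed. Its smallest p-values were those of Tapbpl, a peptide editor, at 0.25 ± 0.10 (adjusted p = 0.183), the chaperone Pdia3 at 0.14 ± 0.066 (adjusted p = 0.244) and the peptide transporter subunit Tap2 at 0.28 ± 0.18 (adjusted p = 0.386); Tap1, the other transporter subunit, differed by -0.12 ± 0.24 (adjusted p = 0.805). Of the ubiquitin genes, Uba6, a ubiquitin-activating enzyme, was the 1 measured of 6 listed, and differed by 0.82 ± 0.17 (adjusted p = 0.0586), with groups that did not overlap.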

How the data were processed

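Total RNA of 5 normal and 5 CAF cultures was labelled with biotin (6 ug per labelling, per the labels' protocols) and hybridised to 1-colour Affymetrix Mouse430_2 arrays. The authors deposited log2 values, made with RMA in Affymetrix Expression Console per the submitters' processing notes, which also name limma; versions are not given in the sources used here. RMA quantile-normalises arrays, so differences are relative to the other probe sets, and it gives no detection call. The number of arrays limits the precision.

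Of 45101 probe sets, 64 controls were left out; of the other 45037, 34945 had 1 symbol in the platform annotation, 932 several and 9160 none. A gene with several single-symbol probe sets was represented by the brightest by its 10-array mean, giving 18193 genes. The 49 members had 103 probe sets. The test was limma's moderated test (version 3.58.1, R 4.3.3; group as the only term, default prior), 2-sided, with Benjamini-Hochberg adjustment over all genes; a gene was called when its adjusted p was below 0.05. A difference is the CAF mean minus the normal mean, ± SE. The procedure was checked on simulated data with independent noise and changes larger than any member difference. That check does not bear on small differences or on variation shared between genes.

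The members and lists were chosen with earlier results of these data known, and the cell division list after its values were seen. Values by array are given for Psmb5 to Psmb10 and Psme1, and for the smallest p in each direction in each class of 4 or more genes. They are also given for genes said to be chosen after their values were seen and, outside these rules, for Irf1. Of marker lists the 3 brightest genes are named, and of the cell division list none. Of every other list, the 3 smallest p-values and the best gene in the other direction are named. Alternatives were another normalisation, centring, probe set rules, filter, variance models, an exact permutation test (smallest p possible 0.00794), a replicate block, the label prefix, and leaving out each array. Promoters are RefSeq's, and protein sequences were not used here.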

Additional observations from a re-analysis of the deposited data

How the results depend on the processing

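Under all 22 alternatives 0 proteasome genes were called in either direction. The median difference of the 43 genes outside the immune-induced subset was -0.01 and ranged from -0.13 to 0.060 when 1 array was left out, with 0.029 after shifting the arrays to the same median and -0.056 after quantile normalisation; that of the 4 immune-induced genes was -0.36 and ranged from -0.55 to -0.11. The lowest adjusted p of any member was 0.0576 (Psmd9, limma with array quality weights) and under the other alternatives 0.0904 to 0.333. The count called over all genes, 137 as reported, ranged from 0 to 1597, the latter with array quality weights. It was 0 by the exact permutation test, with the prefix as a term, and with normal replicate 3, or any of CAF replicates 1, 3 and 5, left out.

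Of 374 alternative values of the 17 proteasome genes given by array, 359 kept their direction and 15 reversed, none of them past the threshold. Pomp, Nfe2l1 and Irf1, also given by array, were not among these genes. Some alternatives leave each difference as it was: the permutation test, the filter, the intensity-trend variance model, the replicate block and the single probe set fit. Their values are counted in the 359, which therefore overstates how stable the directions are. With the arrays shifted to the same median, Psmb5 became 0.00089. Against the vs normal arrays only, Psmb5 became 0.087, Psmb7 0.050 and Psmc2 0.061. With the prefix as a term, and equally against the ls normal arrays only, Psmb9 became 0.13, Psmd5 -0.10 and Psma6 -0.017. Leaving out 1 array gave a range of -0.14 to 0.059 for Psmb5, -0.49 to 0.0016 for Psmb10 and -0.14 to 0.0032 for Psmc2. The cause was not tested.

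With the replicate number as a block, 0 members were called, 0 had an unadjusted p under 0.05 (all genes 16.6%) and the lowest adjusted p was 0.328 (Psme4); over all genes 0 were called in place of 137. Whether the numbers pair the arrays cannot be told from these values. The deviations of same-numbered arrays from their group means correlated at 0.34, -0.53, -0.48, -0.06 and -0.09 across genes. Not every array correlated best with its own number.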

Other observations

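The 49 proteasome genes had 54 further, dimmer probe sets, of which 19 differed between CAF and normal arrays in the direction opposite to the probe set used. When all 34945 single-symbol probe sets were tested singly with limma, 0 of the 103 of these genes were called, against 429 of all probe sets, and 7 (6.80%) had an unadjusted p under 0.05, against 22.0% of all. The lowest adjusted p, 0.0904, belonged to a dimmer probe set of Psmd4, the ubiquitin receptor of the regulatory particle, with a difference of -0.31 ± 0.09.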
